A study of Drosophila melanogaster with 12 samples.

Results

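Sarcomere and contractile muscle genes were followed through 4 cell fractions of the Drosophila melanogaster ovary. The group holds 31 genes, chosen by name, and a gene was measured where the platform annotation gave a probe set to its symbol alone. This held for 25 of the 31, out of 10844 genes on the array, and a gene with several was represented by the one brightest on average over the 12 arrays. Unc-89 appears under its current symbol Obsc. Mhc, Act57B, Tm1, wupA, TpnC47D and TpnC25D had no such probe set and were not analysed here, so that the muscle myosin heavy chain itself is missing from the set.

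The ovarioles of the fly are enclosed in a thin epithelial sheath whose muscle cells contract and move egg chambers towards the oviduct. Such muscle is striated and built from the same repeating unit as body muscle. In it, myosin thick filaments slide along actin thin filaments, and calcium acting on the troponin complex permits the contraction. Several contractile proteins exist as isoforms from separate genes, some of which serve the indirect flight muscles and others the remaining body and visceral muscles. Border cells and other migratory follicle cells are epithelial and use cytoplasmic actin and nonmuscle myosin, so transcripts of the sarcomere are commonly taken as a sign of sheath muscle among ovarian cells.

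The study used 12 arrays in 4 groups of 3 biological repeats, all from female ovaries of flies 2 to 7 days old. All groups carried the slbo-Gal4 driver, which is active in border cells and some other follicle cells, and UAS-mCD8-GFP, a membrane tag. Wild-type flies were slbo-Gal4, UAS-mCD8-GFP/+. Mutant flies were slbo-Gal4, slboe7b/UAS-mCD8-GFP, slboLy6, with both alleles of slow border cells (slbo), the gene of a C/EBP transcription factor needed for border cell migration. Cells bound by magnetic beads through the tag form the migratory fraction, and the remainder forms the nonmigratory fraction. These are names of bead fractions, and each can hold several cell types. Of the mutant nonmigratory arrays, replicate 2 had no age or tissue label, replicate 3 had no genotype label and was placed by its title, and replicate 1 had its driver spelled slbo-Gla4.

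Values are MAS5 signals, a linear measure of the brightness of a probe set. Their trimmed means lay between 150.026 and 150.03 on all arrays. The level of absent transcripts, taken as the 95th percentile of 23 control probe sets for bacterial, mouse and yeast sequences, ranged from 24.95 to 50.9 among arrays. The targeted gene slbo had signals of 275, 197 and 167 in wild-type migratory and 44.3, 51.4 and 35.1 in mutant migratory cells, without overlap (log2 -2.09, SE 0.404, adjusted p = 0.0130 by limma). In nonmigratory cells its genotype change was log2 -1.11 (SE 0.404, adjusted p = 0.351 by limma), also without overlap. Between wild-type fractions slbo was higher in migratory cells without overlap, but by log2 0.71 only (SE 0.404, adjusted p = 0.342 by limma). In bulk fractions, fewer muscle cells and less RNA per muscle cell cannot be told apart.

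Isoforms of the indirect flight muscle were not seen above the absent level. Act88F, the flight muscle actin, had signals from 2.8 to 12.7 over the 12 arrays. TpnC4, the main troponin C of flight muscle, lay between 1.0 and 7.7. TpnC41C, another troponin C, lay between 2.0 and 28.7, and its highest values were 13.8, 21.8 and 28.7 in mutant nonmigratory cells. The signal of fln, which encodes the flight muscle thick filament protein flightin, was between 2.0 and 40.1. Mlp60A, a small muscle LIM protein gene, lay between 8.6 and 21.7. Each of these 5 genes stayed at or below the absent level of its own array on all 12 arrays, and none entered the tests, which required a signal above the 40th percentile of the array on at least 3 arrays.

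**Figure D1:**
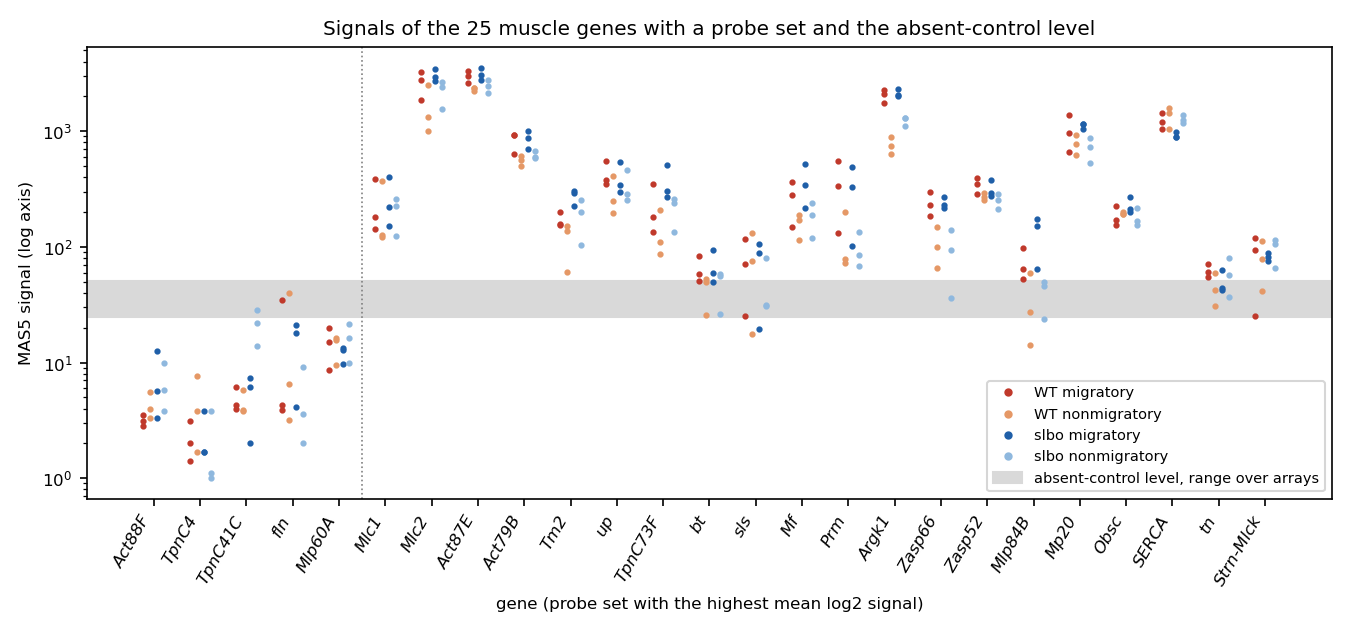
MAS5 signal on a log axis for the 25 muscle genes with a probe set, 3 points per group, with the range of the absent-control level over arrays in grey. The 5 genes left of the dotted line lie at or below the absent level of their arrays, and the 20 genes to the right were tested. Heights of different genes come from different probe sets and are not comparable.

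The other 20 genes entered the tests, and 14 of them lay above the absent level on all 12 arrays. The remaining 6 were dimmer: Zasp66 exceeded that level on 11 arrays, bt and Strn-Mlck on 10, sls on 9, and tn and Mlp84B on 8. In wild-type nonmigratory cells the mean of Mlp84B did not reach the absent level. Muscle transcripts were thus measured in all 4 groups, the bead-bound fractions included.

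Muscle genes were on the whole brighter in the migratory fraction. Medians of several marker lists for other cell types were also above 0, as given below. Averaged over genotypes, 9 of the 20 tested genes passed the test as higher, where 8.04% of all 8978 features did, and 0 were lower, against 9.89% of all features. A gene is said here to pass, rise or fall when its limma p, adjusted by Benjamini-Hochberg over all features, is below 0.05. The median log2 change was 0.50 over the 20 genes and 0.03 over all features, and 18 of the 20 values were above 0. Within the wild type 1 gene was called higher and 17 of 20 values were above 0 (median log2 0.54, with 4.27% of all features called higher and 4.92% lower). Within the mutant 2 were called higher and again 17 were above 0 (median log2 0.47, with 3.72% of all features called higher and 5.2% lower). Of all 8978 features 4759 were above 0 on average, 4586 in the wild type and 4701 in the mutant. The signals did not overlap between fractions for 5 genes higher in the wild type, where 12.3% of all features were so and 12.8% were lower, and for 7 higher and 1 lower in the mutant, where 15% and 14.8% were.

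**Figure D2:**
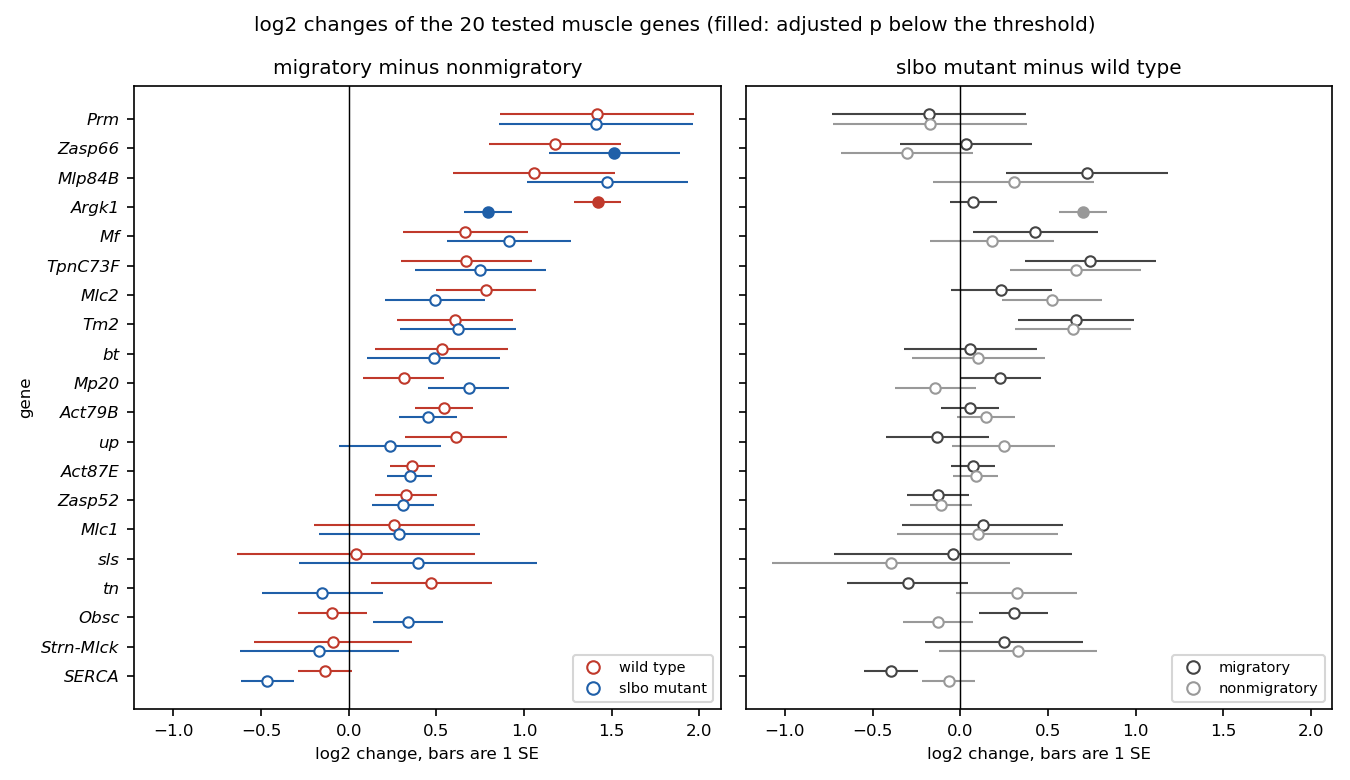
log2 change with 1 SE for the 20 tested genes, ordered by the fraction difference averaged over genotypes, on the left between fractions within each genotype and on the right between genotypes within each fraction. Filled points passed the test, namely Argk1 in 3 of the comparisons and Zasp66 in the mutant. Points on the left lie mostly above 0, from -0.46 for SERCA to 1.52 for Zasp66, both in the mutant, and those on the right lie around 0.

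Of the thick filament genes, Prm, Mlc2 and Mf were higher in migratory cells on average and Mlc1 was not called. Prm encodes paramyosin and miniparamyosin, the rod proteins of the thick filament core. Its signals were 336, 555 and 133 in wild-type migratory, 73.2, 199 and 78.1 in wild-type nonmigratory, 332, 103 and 490 in mutant migratory and 133, 68.8 and 85.1 in mutant nonmigratory cells. Replicate 3 of the wild type and replicate 2 of the mutant were far lower than the other migratory arrays, and the fractions overlapped in both genotypes. The average change was log2 1.41 (SE 0.391, n = 6 arrays per fraction, adjusted p = 0.0202 by limma), with nearly equal values of 1.42 and 1.41 in wild type and mutant, neither of which passed alone. The call was lost without the variance trend (adjusted p = 0.0591), and without mutant migratory replicate 3 or mutant nonmigratory replicate 2.

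Mlc2, the regulatory light chain of muscle myosin, had signals of 2765, 3257 and 1873 in wild-type migratory and 998, 2522 and 1314 in wild-type nonmigratory cells. In the mutant they were 2930, 2741 and 3430 in migratory and 2393, 2640 and 1561 in nonmigratory cells. The mutant fractions did not overlap, whereas wild-type nonmigratory replicate 2 reached into the migratory range. On average Mlc2 rose by log2 0.64 (SE 0.202, adjusted p = 0.0409), a call that was lost in 12 of 21 alternative settings.

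The essential light chain gene Mlc1 showed the replicates rather than the fractions. Its signals were 182, 390 and 144 in wild-type migratory cells, and 121, 375 and 128 in wild-type nonmigratory cells. In the mutant they were 222, 151 and 402 in migratory and 225, 261 and 123 in nonmigratory cells. Replicate 2 stood well above the other arrays in either wild-type fraction. The average change between fractions was log2 0.27 (SE 0.325, adjusted p = 0.634).

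Mf, the gene of the thick filament protein myofilin, had signals of 150, 361 and 283 in wild-type migratory, 188, 171 and 114 in wild-type nonmigratory, 344, 215 and 517 in mutant migratory and 239, 118 and 190 in mutant nonmigratory cells. The fractions overlapped in either genotype. Its average rise of log2 0.79 (SE 0.251, adjusted p = 0.0410) was lost in 12 of 21 alternative settings.

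Of 5 tested thin filament genes 2 rose on average, both of them actins, and the median was log2 0.50. The probe sets of Act87E and Act79B carry the suffix that the maker uses for sets binding several members of a gene family, so their signals may include other actins, cytoplasmic ones among them. Act79B, an actin of tubular muscles such as those of the legs, had signals of 928, 636 and 927 in wild-type migratory and 504, 610 and 567 in wild-type nonmigratory cells. Its mutant signals were 880, 1003 and 696 in migratory and 586, 602 and 673 in nonmigratory cells. Within either genotype the fractions did not overlap, and the average rise was log2 0.50 (SE 0.118, adjusted p = 0.00813). Act87E rose by log2 0.36 on average (SE 0.0899, adjusted p = 0.0120), from signals between 2126 and 2787 in nonmigratory to between 2601 and 3551 in migratory cells, a call that was lost without the variance trend (adjusted p = 0.0726).

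The troponin and tropomyosin genes did not pass. TpnC73F, a calcium-binding troponin C of body muscle, had signals of 181, 350 and 135 in wild-type migratory, 87.5, 207 and 110 in wild-type nonmigratory, 271, 305 and 510 in mutant migratory and 257, 242 and 135 in mutant nonmigratory cells. Its average change was log2 0.71 (adjusted p = 0.0794). Tm2, a tropomyosin gene, had signals of 157, 200 and 155, then 60.9, 138 and 151, then 293, 227 and 302, and last 252, 200 and 103 in the same order of groups, with an average change of log2 0.61 (adjusted p = 0.0870). For up, the troponin T gene, the signals were 375, 550 and 353, then 195, 409 and 248, then 536, 345 and 298, and last 287, 460 and 253, with log2 0.42 (adjusted p = 0.188). In each of these genes the highest wild-type arrays of either fraction include replicate 2, except for Tm2 in nonmigratory cells, where replicate 3 was highest. A further probe set of up never exceeded a signal of 30.4, under the absent level on all arrays.

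**Figure D3:**
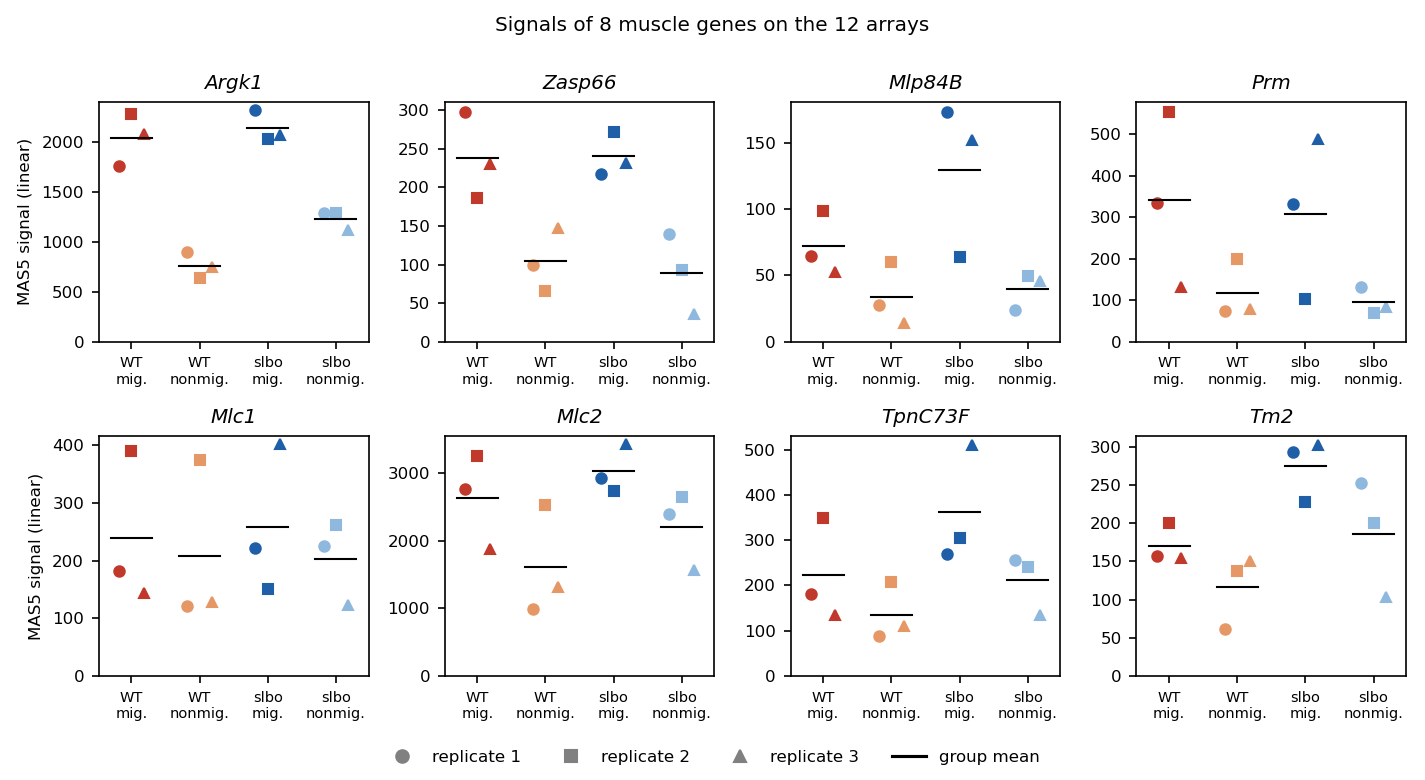
MAS5 signal on linear axes for 8 muscle genes, 1 point per array, with the marker giving the replicate and the line the group mean. Argk1 and Zasp66 separate the fractions, whereas in Mlc1 the spread within each group, such as 121 to 375 in wild-type nonmigratory cells, exceeds the differences between group means.

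Z-disc genes had 2 of 3 tested members called higher on average. Zasp66, a PDZ domain protein of the Z-disc that binds alpha-actinin, had signals of 298, 186 and 230 in wild-type migratory and 99.0, 66.0 and 147 in wild-type nonmigratory cells. In the mutant they were 218, 271 and 232 in migratory and 140, 93.0 and 35.9 in nonmigratory cells. All 6 migratory arrays lay above all 6 nonmigratory arrays. Its change was log2 1.52 in the mutant (SE 0.375, n = 3 per group, adjusted p = 0.0207), 1.18 in the wild type (adjusted p = 0.0654) and 1.35 on average (SE 0.265, adjusted p = 0.00228). The mutant call was lost without the variance trend (adjusted p = 0.0619), and without mutant migratory replicate 2, mutant migratory replicate 3 or mutant nonmigratory replicate 3.

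Mlp84B, a muscle LIM protein of the Z-disc, had signals of 64.6, 98.2 and 52.6 in wild-type migratory, 27.4, 59.8 and 14.1 in wild-type nonmigratory, 173, 63.9 and 152 in mutant migratory and 23.8, 49.6 and 45.9 in mutant nonmigratory cells. The fractions overlapped in the wild type only, and replicate 2 of wild-type nonmigratory cells again stood highest in its group. Since the mean of wild-type nonmigratory cells lay under the absent level, the fold there can only be given as at least 1.43 (adjusted p = 0.190). In the mutant, where both means were above that level, the change was log2 1.48 (SE 0.461, adjusted p = 0.0612). The average over genotypes was called higher (adjusted p = 0.0133), with no exact size given because it includes that wild-type group.

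The brightest of the 3 Zasp52 probe sets, for another alpha-actinin-binding Z-disc protein, changed by log2 0.32 on average (adjusted p = 0.0997), with signals between 213 and 394 over all arrays. Another of its probe sets gave 0.61 and the third -0.23.

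None of the 4 genes of giant and M-line proteins was called between fractions on average by limma, and 0 had an unadjusted p below 0.05 (median log2 0.17). An unadjusted limma p below 0.05 was reached there by 2657 of all 8978 features. The projectin gene bt had signals from 25.9 to 94.3 and changed by log2 0.51 on average (adjusted p = 0.228). The Sallimus gene sls, which also encodes kettin, had signals of 116, 71.5 and 25 in wild-type migratory, 17.5, 76.1 and 131 in wild-type nonmigratory, 106, 87.6 and 19.5 in mutant migratory and 30.5, 79.6 and 31.2 in mutant nonmigratory cells. Its highest and lowest arrays within a group differed by up to 5.55-fold on the scale of signal plus the added constant, and its average change was log2 0.22 (SE 0.480, adjusted p = 0.813). Its other 3 probe sets did not exceed 35.2 and lay under the absent level on all arrays.

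Obsc, the gene of the M-line protein obscurin, had signals of 227, 172 and 155, then 193, 202 and 191, then 214, 272 and 201, and last 156, 168 and 216 in the order wild-type migratory, wild-type nonmigratory, mutant migratory and mutant nonmigratory, and changed by log2 0.12 on average (adjusted p = 0.624). A further Obsc probe set above the absent level on all 12 arrays gave 0.57 on average, with 0.07 in the wild type and 1.07 in the mutant. On that set wild-type nonmigratory replicate 1 was lowest of its group with 68.0, against 192 and 158 on replicates 2 and 3. Strn-Mlck, a stretchin and myosin light chain kinase gene, ranged from 25.3 to 120 and changed by log2 -0.13 (adjusted p = 0.838).

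Among the energy, calcium and other muscle genes Argk1 had the lowest adjusted p between fractions. Argk1 encodes arginine kinase, which buffers ATP from phosphoarginine and is abundant in muscle but not limited to it. Its signals were 1760, 2279 and 2080 in wild-type migratory cells, 897, 638 and 749 in wild-type nonmigratory cells, 2322, 2029 and 2073 in mutant migratory cells and 1289, 1290 and 1117 in mutant nonmigratory cells. All migratory arrays lay above all nonmigratory arrays of both genotypes. It rose 2.67-fold in the wild type (log2 1.42, SE 0.136, adjusted p = 2.68e-05), 1.73-fold in the mutant (log2 0.79, adjusted p = 0.00260) and 2.15-fold on average (adjusted p = 3.35e-06).

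A dimmer probe set of Argk1 gave 0.21 in the wild type and 1.51 in the mutant, with signals of 236, 61.2 and 144 in wild-type migratory and 273, 58.6 and 81.2 in wild-type nonmigratory cells, so that in the wild type it differed from the brighter one by -1.21 on the log2 scale. With the mean of both, the wild-type call was lost.

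Mp20, a calponin-like muscle protein gene, had signals of 960, 1369 and 663 in wild-type migratory, 774, 930 and 627 in wild-type nonmigratory, 1156, 1164 and 1042 in mutant migratory and 726, 872 and 529 in mutant nonmigratory cells. The mutant fractions did not overlap. Its average rise of log2 0.50 (SE 0.163, adjusted p = 0.0471) was lost in 13 of 21 alternatives.

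SERCA, the calcium pump of the sarcoplasmic and endoplasmic reticulum, ran the other way. It had signals of 1039, 1427 and 1203 in wild-type migratory, 1044, 1436 and 1578 in wild-type nonmigratory, 980, 891 and 892 in mutant migratory and 1250, 1385 and 1188 in mutant nonmigratory cells, with a log2 value of -0.30 on average (SE 0.108, adjusted p = 0.0706). Mutant migratory cells were lowest and did not overlap with any other group. The gene tn, whose product thin maintains sarcomere structure, had signals between 30.9 and 79.4 and changed by log2 0.16 (adjusted p = 0.725).

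Few muscle genes were called between the slbo genotypes. In migratory cells 0 of 20 were called by limma, and 1 had an unadjusted p below 0.05, namely SERCA (log2 -0.40, SE 0.153, adjusted p = 0.258). There 1.14% of all features were called higher and 0.802% lower, and 1175 of 8978 had an unadjusted limma p below 0.05. In nonmigratory cells 1 was called higher, where 0.312% of all features were, and 0 lower, where 0.356% were; this was Argk1, at 1.62-fold (log2 0.70, SE 0.136, adjusted p = 0.0312). The genotypes did not overlap in migratory cells for 1 gene higher in the mutant, Tm2, where 9.48% of all features were so, and 1 lower, SERCA, where 8.81% were. In nonmigratory cells this held for 1 higher, Argk1, against 7.57% of all features, and 0 lower, against 7.87%. Median log2 changes between genotypes were 0.07 in migratory and 0.13 in nonmigratory cells over the 20 genes, and 0.01 in either over all features. Averaged over fractions only Argk1 passed (log2 0.39, SE 0.0964, adjusted p = 0.0386, with 1.94% of all features called higher and 1.51% lower), and TpnC73F (log2 0.70, adjusted p = 0.211) and Tm2 (log2 0.65, adjusted p = 0.186) had larger values that did not pass. On that average 15 of the 20 values were above 0, and 4 genes had an unadjusted limma p below 0.05. Of all 8978 features 4596 were above 0 there, and 1272 had an unadjusted limma p below 0.05. The dimmer Argk1 probe set had the other sign in nonmigratory cells (log2 -0.56, SE 0.588). The Argk1 call in nonmigratory cells was lost without either of wild-type nonmigratory replicates 2 and 3 or any 1 of the mutant nonmigratory arrays, and the averaged call was lost in 13 of 21 alternatives.

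The difference of the fraction changes between genotypes was called for 0 of 20 muscle genes by limma, as for 0% of all features. An unadjusted limma p below 0.05 was found for 603 of 8978 features and for 1 muscle gene. This gene was Argk1 (log2 -0.62, SE 0.193, adjusted p = 0.629). Its mutant nonmigratory signals lay above the wild-type ones while the migratory signals overlapped. The median over the 20 genes was -0.01.

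Variation between replicates was large in this set and shared by part of it. The SD within groups had a median of 0.451 log2 units over the 20 genes and 0.355 over all features, and 13 of the 20 genes lay above the latter. Deviations of each array from its group mean were compared between genes over the 12 arrays. Genes measured on the same array share its labelling and cell preparation. For 9 genes the correlation with the mean deviation of the other muscle genes exceeded 0.5. These were Mlc2 (r = 0.924), Mlc1 (r = 0.805), TpnC73F (r = 0.795), Tm2 (r = 0.756), bt (r = 0.738), up (r = 0.702), Mp20 (r = 0.692), Prm (r = 0.582) and SERCA (r = 0.537). Mlc1 and TpnC73F were the closest pair (r = 0.944), followed by Mlc1 and Mlc2 (r = 0.898). Of 190 pairs 19.5% correlated above 0.5, against 9.38% of the pairs of all features. The median over the pairs was 0.053, against 0.0013 over all features. Mf and Zasp52 were the pair with the lowest value (r = -0.839). For 6 of the 20 genes the correlation with the mean of the others was below 0.

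Argk1 (r = -0.173), Zasp66 (r = 0.0581), Mf (r = -0.0976) and Act79B (r = -0.394) did not follow that shared deviation. The share of a gene's variance that lay between the 4 groups was 94.9% for Argk1, 69.3% for Zasp66 and 66.5% for Act79B, but 5.96% for Mlc1, with medians of 50.3% over the 20 genes and 39.2% over all features. Prm, Mlc2 and Mp20 were among both the 9 genes called between fractions and the 9 that followed the shared deviation.

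**Figure D4:**
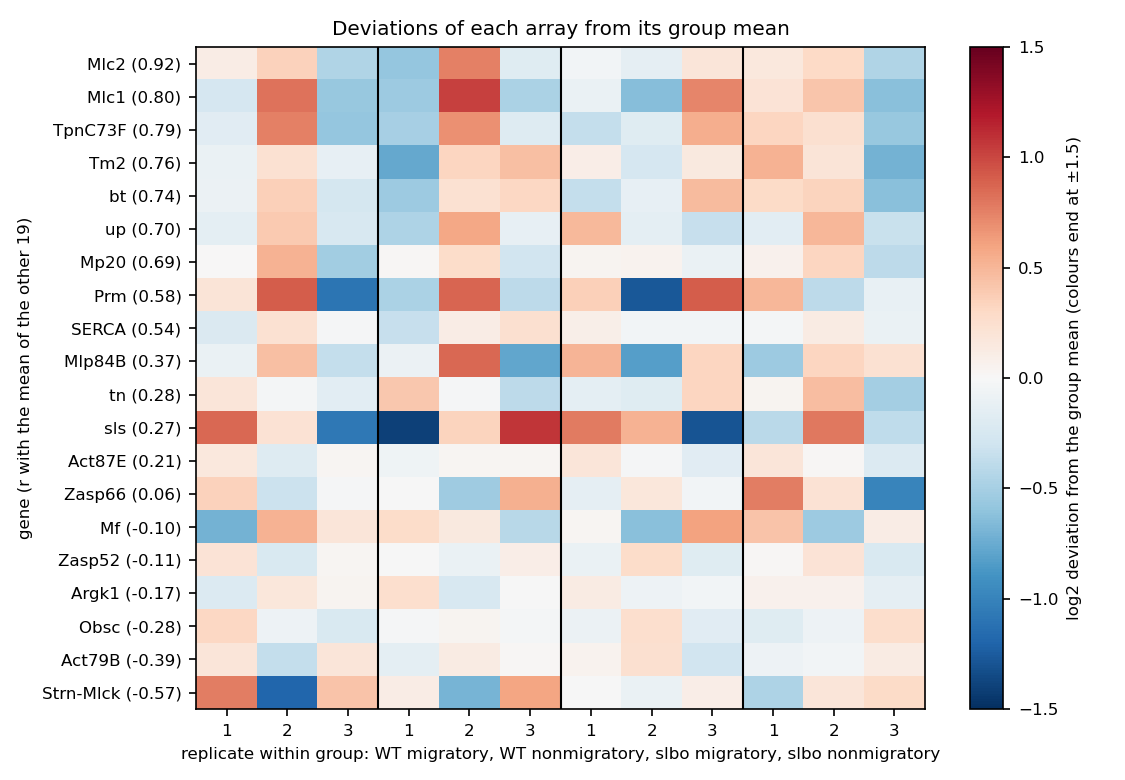
log2 deviation of each array from its group mean for the 20 tested genes, ordered by the correlation of a gene with the mean of the other 19, given in brackets. The 9 top rows lie above their group mean on replicate 2 of both wild-type fractions and below it on replicate 3 of mutant nonmigratory cells. The other rows are mixed, and Zasp66 among them has the lowest value on that mutant array, -0.99.

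By array, the mean log2 level of the 20 genes was 8.39, 8.50 and 8.08 in wild-type migratory and 7.53, 8.02 and 7.78 in wild-type nonmigratory cells. In mutant cells it was 8.54, 8.31 and 8.55 in migratory and 8.01, 8.11 and 7.66 in nonmigratory cells. The fractions did not overlap in either genotype.

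Further lists of muscle genes were compared between the fractions, where 8.04% of all features were called higher and 9.89% lower on average. Of 27 further Z-disc, capping and attachment genes 23 were tested, and 5 rose and 0 fell on average (median log2 0.12). These included Pax, the paxillin gene (log2 0.57, adjusted p = 0.00456), the alpha-actinin gene Actn (log2 0.42, adjusted p = 0.00594) and the capping protein gene cpa (log2 0.80, adjusted p = 0.0105). The partner of the last, cpb, was lower in the mutant averaged over fractions (log2 -1.04, adjusted p = 0.000410). Of 25 regulators of muscle formation 12 were tested, 1 rose and 0 fell (median log2 0.27). This gene was blow, which acts in myoblast fusion (log2 0.68, adjusted p = 0.000592), and nau, the Drosophila MyoD, and Hand lay at or below the absent level in all groups.

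Of 23 excitation, calcium and energy genes 10 were tested, 1 rose and 3 fell (median log2 -0.06). The sodium pump beta subunit gene nrv2 rose (log2 0.85, adjusted p = 0.0172), and Glyp, the glycogen phosphorylase gene (log2 -0.82, adjusted p = 0.000431), Pgm1, the phosphoglucomutase gene (log2 -1.26, adjusted p = 0.0102), and the ADP/ATP carrier gene sesB (log2 -0.37, adjusted p = 0.0402) fell. The calcium release channel gene RyR of the sarcoplasmic reticulum and the voltage-gated channel gene Ca-alpha1D had means at or below the absent level in all groups. Of 10 cytoplasmic actin and nonmuscle myosin genes 6 were tested, 1 rose and 0 fell (median log2 0.42). This was Mlc-c, a light chain of nonmuscle myosin (log2 0.55, adjusted p = 0.00104), and the phosphatase gene flw was higher in the mutant averaged over fractions (log2 0.50, adjusted p = 0.0272). The medians of this list and of the sarcomere genes were thus close, at 0.42 and 0.50.

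Markers of other cell types and of RNA integrity also moved with the fractions or genotypes. Averaged over genotypes, median log2 changes between fractions were 0.59 for gut, 0.44 for follicle cell and eggshell and 0.39 for germline genes. They were 0.48 for hemocyte, 0.35 for neuron and -0.04 for fat body genes, with 3 tested in each. Trachea genes, 5 of them tested, had a median of -0.12. Of 30 gut genes 27 were tested, 9 were higher in migratory cells on average and 18 higher in the mutant averaged over fractions, with 0 lower in either. Of all features 8.04% were higher and 9.89% lower between fractions, and 1.94% were higher and 1.51% lower between genotypes. Their summed signal ranged from 5432 to 14571 in wild-type migratory, 4900 to 11541 in wild-type nonmigratory, 38563 to 53120 in mutant migratory and 19085 to 26420 in mutant nonmigratory cells. The mean level of the gut list was lowest on replicate 2 in both wild-type fractions, at 6.90 and 6.64, the arrays on which the 20 muscle genes had their highest mean of the group. In mutant migratory cells replicate 2 had the highest gut mean of the group, 9.90, and the lowest muscle mean, 8.31. In mutant nonmigratory cells replicate 2 was instead the highest for both lists, at 8.71 for gut and 8.11 for muscle. While gut genes had a median genotype change of log2 1.58 averaged over fractions, the muscle genes had 0.08.

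Follicle cell and eggshell genes were higher in migratory cells for 7 of 16 tested and lower in the mutant for 9 of 16, against 8.04% and 1.51% of all features. The sum of the 16 signals ranged from 132804 to 158703 in wild-type migratory, 131468 to 145726 in wild-type nonmigratory, 103473 to 144015 in mutant migratory and 88366 to 101014 in mutant nonmigratory cells. Of 10 hemocyte genes 3 were tested and 0 called between fractions on average. Among them 1 had an unadjusted limma p below 0.05, as had 2657 of all 8978 features. The defining markers Hml, NimC1 and eater had group means at or below the absent level in all groups. Of 9 hemocyte genes with a probe set, 3 exceeded that level in either migratory group and 2 in either nonmigratory group. Of the 3 tested, 1 was called higher in the mutant averaged over fractions (log2 1.57), where 1.94% of all features were. Means of the neuronal markers elav, nSyb and Syn were likewise at or below the absent level in all groups. Of 10 neuronal genes with a probe set, 2 exceeded it in every group. On average, 0 of the 3 tested were called between fractions or between genotypes. Of 13 germline genes tested 1 rose in migratory cells and 5 rose in the mutant, against 8.04% and 1.94% of all features. The 5' to 3' ratio of the GAPDH control, lower where RNA is less intact, was 0.0783 to 0.0947 in wild-type migratory, 0.158 to 0.200 in wild-type nonmigratory, 0.0932 to 0.150 in mutant migratory and 0.134 to 0.184 in mutant nonmigratory cells. Its mean was lower in the migratory fraction of both genotypes, where the muscle mean was higher, though the mutant fractions overlapped in the ratio. Within the nonmigratory groups, wild-type replicate 2 had the highest ratio, 0.200, and the highest muscle mean, and mutant replicate 3 had the lowest of both. Within the migratory groups, the array with the highest ratio had the lowest muscle mean. These were wild-type replicate 3 (ratio 0.0947, mean 8.08) and mutant replicate 2 (ratio 0.150, mean 8.31). The part of RNA integrity or of these cell types in the muscle differences was not tested.

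**Figure D5:**
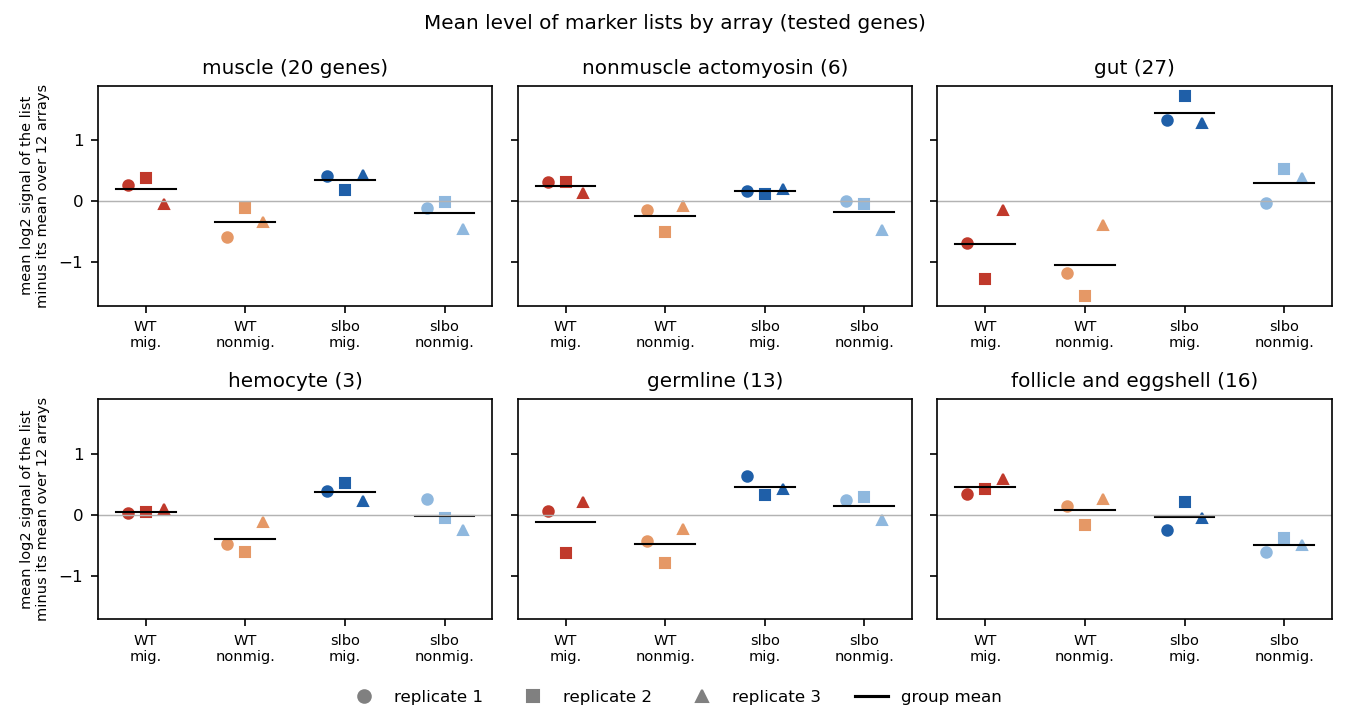
Mean log2 signal of 6 gene lists on each array, less the mean of that list over the 12 arrays, with the number of tested genes in brackets. The group means of the 6 lists drawn are higher in migratory than in nonmigratory cells of both genotypes. Among lists not drawn, fat body genes and excitation, calcium and energy genes had lower means in migratory cells of both genotypes. The gut list is highest in mutant migratory cells, and the follicle list is highest in wild-type migratory cells.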

How the data were processed

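The deposited values were signal intensities, 1 per probe set and array, which the authors made with MAS5 per the submitters' processing notes, its version not given in the sources used here. Trimmed means were equal among arrays as deposited. Of 14010 probe sets, 44 controls were left out. Of the rest 12443 had 1 gene in the annotation, 327 several and 1196 none. An offset of 7.50, which is 5% of the trimmed mean, was added before log2. Of 12367 genes and probe sets without a single gene, called features here, 8978 lay above the array's 40th percentile on 3 or more arrays and were tested. The 4 group means were estimated in limma 3.58.1 (R 4.3.3), with a variance trend over the mean level, leaving 8 residual degrees of freedom. Benjamini-Hochberg adjustment ran over the 8978 features of each of 7 comparisons. The number of arrays limits the precision: the median SE was 0.302 between 2 groups, 0.213 for averages and 0.427 for the interaction.

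Members, gene lists and tests were chosen with earlier results of these data known. By rule, signals on each array are given for members called in any comparison, with the lowest p of a comparison, or whose probe sets differed by more than 1 log2 unit. Mlc1, TpnC73F and Tm2 were added after their values were seen. From each list of other muscle genes up to 4 called genes with the lowest adjusted p are named. Genes named as lying at or below the absent level were picked after their values were seen. The fits were tested on simulated data. Results were recomputed with probe sets averaged, quantile normalization, median centring, other filters (none, or the 60th percentile), other offsets (1% or 20%), no variance trend, fits of 2 groups, replicate blocks, and single arrays omitted. Same-numbered arrays were not treated as pairs. Tables and figures were made in Python 3.11.15 (matplotlib 3.10.9, numpy 2.4.6, scipy 1.17.1, pandas 2.3.3).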

Additional observations from a re-analysis of the deposited data

How the results depend on the processing

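Median changes of the tested members moved by less than the spread between arrays in all settings run. This spread is the SD within groups of the members' mean level by array, 0.212 log2 units. These are medians of the same 20 genes except with means over probe sets or the filter at the 60th percentile, which left 18, and without a filter, which kept 25. Between fractions they stayed between 0.27 and 0.69, and on average over genotypes between 0.36 and 0.57. Between genotypes they changed sign in some settings, with lowest values of -0.0502 in migratory and -0.0048 in nonmigratory cells. The highest values there were 0.23 and 0.24. Counts of called members moved more. For the wild-type fractions the count of 1 became 0 with means over probe sets and 2 with the filter at the 60th percentile, the added constant of 20% or a fit of only 2 groups, and ran from 1 to 3 when single arrays were left out. For the mutant fractions the count of 2 became 1 without the variance trend and 5 in the fit of 2 groups, and ran from 1 to 4 with single arrays left out. The 9 averaged over genotypes became 4 without the variance trend and ran from 5, without mutant migratory replicate 3, to 9. For the genotypes in nonmigratory cells the count of 1 became 0 with means over probe sets, median centring, no variance trend or the 2-group fit. Averaged over fractions it became 0 with means over probe sets, median centring, no variance trend or the replicate block. Both ran from 0 to 1 with single arrays left out. In migratory cells and for the interaction the count was 0 throughout. With the replicate block the counts were 1 and 3 between the wild-type and mutant fractions and 8 on average, and 1 and 0 for the genotypes in nonmigratory cells and on average. Correlations of deviations between same-numbered arrays of different groups ran from -0.0764 to 0.0832. Between the wild-type fractions they were 0.0364, 0.0832 and 0.0346 for equal numbers, and from -0.0525 to 0.0151 for unequal ones. Between the mutant fractions they were 0.0184, -0.0403 and -0.0237 for equal numbers. Such values cannot show whether same-numbered fractions came from the same preparation. Without single arrays sls ranged from -0.66 to 0.58 in the wild type and from -0.13 to 0.54 on average, Obsc from -0.25 to 0.0175 in the wild type and up from -0.0084 to 0.49 in the mutant, none of them called. Of 1956 log2 changes of single members under the alternatives, 75 had the other sign, and 0 of these were called under either setting. The cause of these shifts was not tested. Signals near the absent level limit what can be said of sls, tn, bt and Mlp84B.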
